A study of Rattus norvegicus with 12 samples.

Results

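Oxidative phosphorylation subunits are the proteins that build the respiratory chain (complexes I to IV) and the ATP synthase (complex V) of the mitochondrial inner membrane. Members were chosen by name, as every probe set whose single gene symbol begins with Nduf, Uqcr, Cox4, Cox5, Cox6, Cox7, Cox8 or Atp5, or is Sdha, Sdhb, Sdhc or Sdhd. They number 89 probe sets of 84 genes, out of 15866 probe sets in all and 10411 genes with a probe set of their own. A further 7 probe sets carry one such symbol beside that of a near-identical copy and were left out.

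RNA came from the microdissected CA1 field of the hippocampus of 12 young male Long-Evans rats aged 3 to 4 months, 6 in each of 2 groups, and each rat gave 1 Affymetrix RAE230A array. Every rat had standard water maze training, and 2 to 3 weeks later was put in a new maze for 8 trials spaced 8 minutes apart. For the spatial learning group the room held orienting cues and a visible platform kept its place, while for the control task group the platform, also visible, was moved between trials and the surroundings held no informative cues. After 1 hour the platform was taken out for a probe trial of 90 seconds, and both groups were killed straight afterwards. The groups are called learning rats and controls from here on. The comparison asks which transcripts differ when the session offered a fixed place to learn. No arrays of untrained rats were used here, so a change shared by both tasks cannot be seen. The deposited values are log2 summaries per probe set, and all differences are learning minus control on that scale.

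Complex I takes electrons from NADH and complex II from succinate. Both pass them through ubiquinone to complex III and on, by cytochrome c, to complex IV, which reduces oxygen. Complexes I, III and IV pump protons, and complex V uses the gradient to make ATP, most of which neurons spend on restoring ion gradients after synaptic activity. The members are encoded in the nucleus, whereas a few central subunits of complexes I, III, IV and V, not among them, are encoded in mitochondrial DNA. Textbook regulators of the nuclear genes include NRF-1, ETS family factors such as GABP, and YY1.

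A sequence feature that the naming rule did not use was shared by many members. Of 76 member genes with a promoter in the RefSeq table (GRCr8, 300 bases each, from 250 before the annotated start), 19.7% held the NRF-1 core (GCGCA and GCGC with any 1 base between), against 9.02% of 8610 genes on the array with a promoter there. The YY1 letters AAGATGGC were in 22.4% of member promoters against 5.13%, and the ETS letters CCGGAAG in 27.6% against 15.5%. Any of the 3 was found in 43 of the 76, or 56.6%, against 25.8%. Both strands were searched, the 3 sets of letters do not contain one another, and the array's genes include the members. CCAAT was in 34.2% of member promoters against 37.6%, and TATAAA in 10.5% against 8.7%. By complex, the NRF-1 letters were in 6 of 32 promoters of complex I, 1 of 4 of complex II, 1 of 6 of complex III, 0 of 12 of complex IV and 5 of 14 of complex V. The 15 tested genes with the NRF-1 letters had a median difference of 0.03 and the 56 without them 0.03. For YY1 the medians were 0.04 with (16 genes) and 0.03 without (55 genes), and for ETS -0.0033 with (21 genes) and 0.04 without (50 genes). A match is only a description of the letters.

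Stretches of 7 promoters are shown because they hold the letters in members described later, with matches in capitals, 5′ to 3′ along each gene. Positions count back from the annotated start, where -1 is the base before it. The complex II genes differ in what their windows hold. Sdha has the NRF-1 letters at -89, -46 and -1 (the last outside the stretch), Sdhb the ETS letters at -108, and Sdhc the YY1 letters at 4, just inside the transcript. Ndufv3 and Atp5po have the NRF-1 letters at -39 and -59, and Uqcrc1 has them on the reverse strand at -64. Ndufa3 has the YY1 letters at 17, and Atp5po and Uqcrc1 hold them too, at 2 and -1, outside their stretches. The stretches lie at chr1:30764453-30764552 (plus strand) for Sdha, chr5:158547804-158547863 (plus) for Sdhb, chr13:86098014-86098060 (minus) for Sdhc, chr20:9613726-9613775 (plus) for Ndufv3, chr1:74515534-74515583 (minus) for Ndufa3, chr11:44657504-44657563 (minus) for Atp5po and chr8:118468143-118468202 (plus) for Uqcrc1, all in GRCr8.
Sdha: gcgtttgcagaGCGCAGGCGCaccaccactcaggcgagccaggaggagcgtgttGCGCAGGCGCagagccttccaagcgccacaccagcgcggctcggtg
Sdhb: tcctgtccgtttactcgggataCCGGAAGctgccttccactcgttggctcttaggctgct
Sdhc: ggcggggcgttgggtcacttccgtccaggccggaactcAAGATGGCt
Ndufv3: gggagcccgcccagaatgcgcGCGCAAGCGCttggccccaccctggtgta
Ndufa3: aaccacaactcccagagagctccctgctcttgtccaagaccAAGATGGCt
Atp5po: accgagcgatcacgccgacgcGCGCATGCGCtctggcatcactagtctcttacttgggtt
Uqcrc1: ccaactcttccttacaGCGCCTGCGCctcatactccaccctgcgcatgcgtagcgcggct

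Markers of the labelled tissue and of its neighbours were looked up. All 8 CA1 marker genes with a probe set, among them Wfs1, Fibcd1, Itpka and Pou3f1, passed the level filter. So did 5 of 6 CA3, 6 of 9 dentate gyrus, 9 of 9 interneuron and 10 of 10 astrocyte marker genes. Passing the filter therefore does not tell CA1 from its surroundings. Several marker lists moved with the groups without any probe set passing the test. All 9 probe sets of CA1 markers were higher in learning rats, with a summed log2 level of 13.71 to 14.07 in controls and 13.80 to 14.19 in learning rats. Dcn, at 0.05, is on both the CA1 and the meningeal list. Astrocyte markers were lower in 14 of 15 probe sets (15.25 to 15.33 against 15.17 to 15.29) and dentate gyrus markers in 7 of 8 (11.79 to 12.00 against 11.68 to 11.98). Oligodendrocyte markers were lower in 11 of 13 (15.34 to 15.64 against 15.33 to 15.60) and microglia markers in 7 of 8 (10.59 to 11.07 against 10.55 to 10.95), with P2ry12 at -0.43. Vascular markers were lower in 6 of 9, interneuron markers in 6 of 11 and CA3 markers in 3 of 6, and blood Hbb was at -0.38. Within the CA3 list the probe sets of Bok were at 0.37 and 0.40, both with groups that did not overlap, and Nnat was at -0.34. Choroid plexus markers were lower in 2 of 3 probe sets, with Ttr at -3.33, Enpp2 at -0.41 and Kcne2 at 0.18. Ttr spanned 4.55 to 13.41 over the control arrays and 3.66 to 4.43 over the learning arrays, so its groups did not overlap either. Such groups were seen in 0.635% of all tested probe sets. Meningeal markers were lower in 4 of 6, and Col1a1 reached 6.67 on control replicate 6 and 6.84 on learning replicate 6. For the hexokinase control, probes at the 3′ end read higher than probes at the 5′ end, a measure of RNA integrity, by 1.48 ± 0.08 in controls and 1.65 ± 0.11 in learning rats (mean ± SD, n = 6 each). The same gap was 1.83 ± 0.09 and 1.93 ± 0.07 for beta-actin and 0.37 ± 0.06 and 0.37 ± 0.08 for Gapdh. The part of these shifts in the differences below was not tested beyond the alternatives given. In tissue RNA, fewer cells of a type and less RNA per cell cannot be told apart.

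Oxidative phosphorylation transcripts had closely similar levels after the 2 tasks, and no member passed the test. A probe set was tested if its mean over all arrays was at least 4, which 79 of the 89 members (77 of 84 genes) were. Over them limma called 0 at an adjusted p of 0.05, as over all 9610 tested probe sets (0.0%), and the smallest adjusted p of a member was 0.376. At an unadjusted limma p under 0.05, 9 members stood out, 7 higher and 2 lower, which is 11.4% of members against 10.9% of all tested probe sets (6.36% higher and 4.55% lower). The share of members is therefore near the background. No member had groups that did not overlap, against 0.635% of all tested probe sets (0.364% higher and 0.271% lower). An exact rank-sum test on 6 against 6 arrays has a smallest p of 0.00216, reached only by groups that do not overlap. With so few of these, it could call no member after adjustment. It put 6 members under an unadjusted 0.05, which is 7.59% of members against 9.32% of all tested probe sets.

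The members lay a little more often on the higher side. Of the 79, 52 were higher and 27 lower, which is 65.8% higher against 53.7% of all tested probe sets, and their median difference was 0.035 against 0.0079. These shares describe the members and were not tested. Differences were small in size. The median size was 0.05 against 0.06 over all tested probe sets, 12.7% of members exceeded 0.1 against 30.1%, and 1.27% exceeded 0.2 against 7.79%. Members are mostly bright, with 65 of the 79 at a mean of at least 9. Among probe sets that bright, 9.23% of members exceeded 0.1 against 21.6% of all tested ones. Their median sizes were 0.045 and 0.051. Members also varied little between rats of one group, which sets how small a change could have been seen. Their median SD within groups was 0.082 against 0.121 over all tested probe sets, and 0.081 against 0.097 among the bright ones. The 95% limma interval reached a median of 0.10 to either side of the difference. For 65 members (82.3%) the whole interval lay within 0.2 of 0, against 43.3% of all tested probe sets, whatever their level. The widest reach was -0.53 on the lower side, for Cox5a, and 0.34 on the higher side, for a probe set of Ndufv3.

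**Figure D1:**
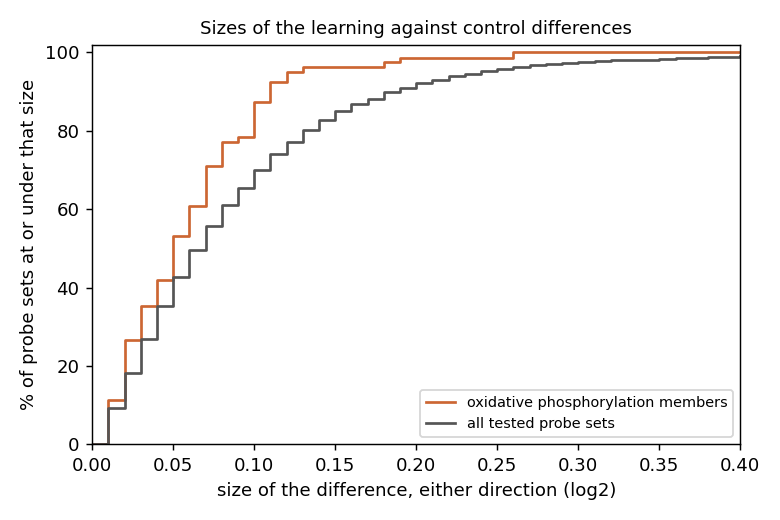
Cumulative share of probe sets (vertical axis, %) by the size of their difference between the groups in either direction (horizontal axis, log2), for the 79 tested oxidative phosphorylation members and all 9610 tested probe sets. The members' line runs above: 12.7% of members exceed a size of 0.1, against 30.1% of all tested probe sets. Levels are not matched, and among probe sets with a mean of at least 9 these shares are 9.23% and 21.6%.

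The complexes were compared by counts and medians. Complex I had 24 of 35 probe sets higher (median 0.04), complex II 4 of 5 (median 0.011), complex III 5 of 7 (median 0.05), complex IV 6 of 10 (median 0.06) and complex V 7 of 15 (median -0.0044). Here Ndufa4, long counted with complex I but found in complex IV, was placed with complex IV, and the Ndufaf assembly factors were kept apart. All medians lay within 0.06 of 0, and those of complexes II and V took either sign across the alternatives. The complex IV median was -0.0022 without the level filter, and that of complex I was 0.011 with the hexokinase gap as a covariate. The per-array mean of complex III, over its 7 probe sets, differed most, at 10.69 ± 0.04 in controls and 10.74 ± 0.06 in learning rats (mean ± SD, n = 6 each), a difference of 0.05. Its values ran from 10.63 to 10.72 and from 10.63 to 10.78. In complex III, 5 of the 6 learning arrays lay above the highest control, while replicate 3 was among the 2 lowest arrays. For the other complexes the mean differed by 0.027 (I), -0.0039 (II), 0.015 (IV) and 0.015 (V), with group SDs of 0.03 to 0.06 and overlapping groups. Leaving out 1 array moved these from 0.017 (without learning replicate 6) to 0.038 for I, from -0.025 (without learning replicate 6) to 0.006 for II, from 0.0003 (without learning replicate 5) to 0.028 for IV and from 0.008 (without learning replicate 6) to 0.026 for V. Without control replicates 3 and 6 and learning replicate 6, which are high in choroid plexus or meningeal transcripts, the difference was 0.031 for III and -0.0006 for IV.

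**Figure D2:**
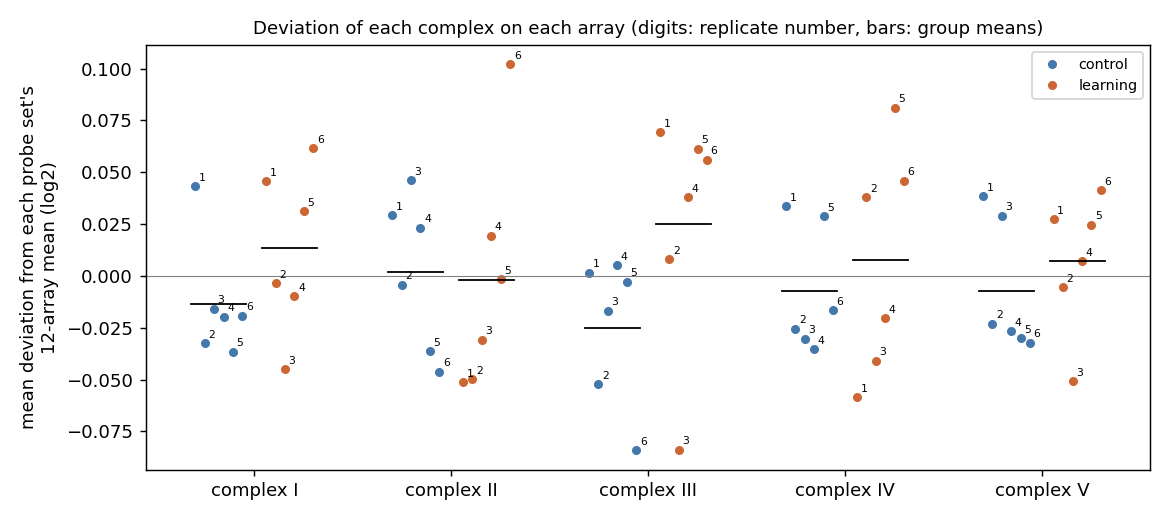
Mean deviation of each complex's tested probe sets from their own 12-array means (vertical axis, log2) on each array, for complexes I to V, with control arrays in blue, learning arrays in orange, digits for replicate numbers and black bars for group means. The groups overlap in every complex, and learning replicate 6 is the highest array for complexes I, II and V.

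Single arrays were high or low across many members at once. Learning replicate 6 lay above the member's 12-array median in 65 of 79 members and control replicate 6 in 21. Learning replicate 5 was the highest of all arrays in 22 members (27.8%, against 15.4% of all tested probe sets) and the lowest in 13 (16.5%, against 14.4%), so it was at an extreme in both directions. Learning replicate 6 was highest in 13 (16.5% against 7.03%) and replicate 3 lowest in 11 (13.9% against 9.32%). Averaged over the 79 members, the deviation of an array ran from -0.04 on learning replicate 3 to 0.05 on learning replicate 6. Both ends are learning arrays, so the range over members was set within that group.

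Complex II, succinate dehydrogenase, is the one complex shared with the citric acid cycle, and here its subunits lay on both sides. Sdhb, the iron-sulfur subunit, had a lowest, median and highest value of 10.38, 10.45 and 10.54 in controls and 10.17, 10.24 and 10.41 in learning rats. All 6 learning arrays were below the control mean and 4 were below the lowest control, while replicates 1 and 5 lay within the control range. The difference was -0.18 (SE 0.05, 95% interval -0.28 to -0.07), the smallest limma p of any member, ranking 77 of 9610 (limma adjusted p = 0.376, exact permutation p = 0.0108 unadjusted). By the exact permutation p, Ndufv3 and Uqcr11 came before it. Leaving out any 1 array moved it between -0.20 and -0.16. With the hexokinase gap as a covariate it was -0.15, with an unadjusted limma p of 0.0519.

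Sdhc, one of the membrane anchors that hold the complex in the inner membrane and bind ubiquinone, lay on the other side, at 8.62, 8.67 and 8.72 against 8.69, 8.76 and 8.89. All 6 learning arrays were above the control mean and 3 above the highest control. The difference was 0.10 (SE 0.04, limma adjusted p = 0.447, exact permutation p = 0.0238 unadjusted), and it was 0.05 with the hexokinase gap as a covariate. Sdha, the flavoprotein that oxidises succinate, differed by 0.005 (SE 0.05), or -0.03 without learning replicate 6, which stood at 10.96 against at most 10.77 on the other arrays of that group. The second anchor, Sdhd, differed by 0.04 and 0.011 on its 2 probe sets (SE 0.04 and 0.06), and by -0.0069 and -0.015 with the covariate.

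The Sdhb to Sdhc gap within an array was examined after these values were seen, and is given without a test. It ran from 1.75 to 1.83 in controls and from 1.39 to 1.72 in learning rats, so that no learning array reached the lowest control. The mean gap was 1.79 ± 0.03 and 1.51 ± 0.12 (mean ± SD, n = 6 each), a difference of -0.28. Such a gap compares 2 different probe sets, so only its change between groups can be read, and it does not say which of the 2 moved. The pair was picked as the lowest and highest difference of the complex, so its separation adds no support to either. Of all 3081 pairs of tested members, 39 (1.27%) had gaps that separated the groups in this way. Of these 24 were among the 78 pairs with Sdhb (30.8%). Over all pairs of tested probe sets the share was 0.722%, and over all pairs with Sdhb it was 11.1%. Within complexes I to V 2 of 776 pairs (0.258%) did, the other being Ndufa2 with Ndufa3.

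**Figure D3:**
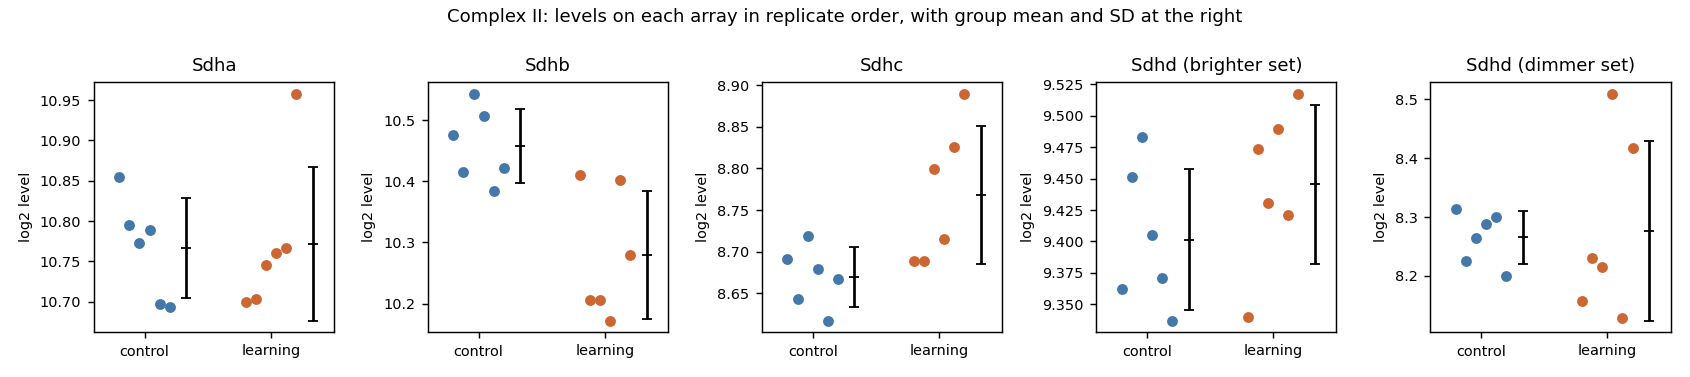
Log2 levels of Sdha, Sdhb, Sdhc and both probe sets of Sdhd (1 panel each, own vertical axis, log2) on each control array (blue) and learning array (orange) in replicate order, with black bars for group mean and SD. Sdhb is lower on 4 learning arrays than on any control, Sdhc is higher on 3, and the remaining panels overlap.

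In complex III, Uqcr11, a small subunit, stood at 11.98, 12.06 and 12.10 in controls and 12.07, 12.16 and 12.25 in learning rats. Of the 6 learning arrays 5 lay above the highest control, and replicate 3 did not. The difference was 0.11 (SE 0.03, 95% interval 0.03 to 0.18, limma adjusted p = 0.394, exact permutation p = 0.00866 unadjusted), between 0.09 and 0.12 when any 1 array was left out. The other small subunits Uqcrq and Uqcr10 differed by 0.12 (SE 0.07) and 0.05 (SE 0.03), and Uqcrq by 0.073 without learning replicate 5. Uqcrc2, a core protein, differed by 0.07 (SE 0.05), or 0.035 without learning replicate 5 and 0.13 with the hexokinase covariate. The catalytic iron-sulfur protein Uqcrfs1 was at -0.0023 and the other core protein, Uqcrc1, at 0.019.

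In complex IV, cytochrome c oxidase, Cox6a1 and Cox7c had the smallest p. Cox6a1, the general form of subunit VIa, stood at 12.30, 12.38 and 12.44 in controls and 12.40, 12.46 and 12.53 in learning rats, with 5 of 6 arrays above the highest control. Its difference was 0.09 (SE 0.03, 95% interval 0.02 to 0.17, limma adjusted p = 0.423, exact permutation p = 0.0152 unadjusted). Cox7c, a small membrane subunit, stood at 11.52, 11.59 and 11.70 against 11.63, 11.68 and 11.83, a difference of 0.10 (SE 0.04, limma adjusted p = 0.443), or 0.07 without learning replicate 5. Only 2 of its learning arrays exceeded the highest control.

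Of the remaining complex IV members, Cox7b differed by 0.07, Cox5b by 0.07, Cox6b1 by 0.06 and Ndufa4 by 0.05, with SEs of 0.04 to 0.05. Without learning replicate 5 the first 3 were at 0.041, 0.043 and 0.039, and Ndufa4 was at 0.031 without learning replicate 1. Cox6b1 was also at 0.041 without control replicate 4, and Cox7b at 0.035 with the hexokinase covariate. Cox4i1, the general form of subunit IV, and Cox8a, that of subunit VIII, differed by -0.015 and -0.0033 (SE 0.04 and 0.03), and both took either sign when 1 array was left out. Cox5a had the widest gap of any member, at -0.25, and the widest error (SE 0.13, limma adjusted p = 0.492). It stood at 6.15, 6.23 and 6.48 against 5.50, 6.09 and 6.43, and without learning replicate 1, the lowest array, the difference was -0.15. Another probe set that names Cox5a also names a copy and was not used.

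The tissue forms of complex IV subunits lay below the level filter on these arrays. They were Cox4i2 (known from lung), Cox6a2, Cox7a1 and Cox8b (muscle forms) and Cox6b2 (testis), with means over all arrays of 2.17, 2.16, 2.81, 2.66 and 2.24. Values this low carry no order between groups, and they say only that no level above the filter was seen with these probes. Also below it were Ndufa4l2, a relative of Ndufa4 (3.31), the pseudogene Cox6c-ps1 (3.34), and further probe sets of Atp5me (2.88) and Atp5if1 (2.83 and 2.96). Both Atp5me and Atp5if1 had another, brighter probe set that was tested.

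Complex I is the largest, and its members differed little. Ndufv3, an accessory subunit of the NADH-oxidising arm, had 2 probe sets. On one it stood at 5.04, 5.21 and 5.25 in controls and 5.25, 5.32 and 5.68 in learning rats, with 5 of 6 arrays above the highest control. The difference was 0.19 (SE 0.07, 95% interval 0.03 to 0.34, limma adjusted p = 0.429, exact permutation p = 0.00433 unadjusted), and without learning replicate 1, the array at 5.68, it was 0.12. On the other probe set the difference was 0.08 (SE 0.07), and 0.02 without learning replicate 5.

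On the lower side of complex I, Ndufa3, a small subunit of the membrane arm, stood at 10.73, 10.78 and 10.88 against 10.56, 10.71 and 10.80. The difference was -0.10 (SE 0.05, limma adjusted p = 0.458), with 3 learning arrays below the lowest control. Ndufs8 and Ndufv2, core subunits that carry iron-sulfur clusters, were at -0.10 (SE 0.08) and -0.08 (SE 0.05). Ndufb3, Ndufb7 and Ndufb8 of the membrane arm were at 0.09, 0.10 and 0.11 with SEs of 0.04 to 0.08, and without learning replicate 5 Ndufb7 was at 0.069 and Ndufb8 at 0.033. Ndufb7 was at 0.057 without control replicate 5, and Ndufv2 at -0.046 without learning replicate 5. With the hexokinase covariate Ndufa3 was at -0.17, Ndufv2 at -0.15, Ndufb7 at 0.044, Ndufb8 at 0.17 and the first Ndufv3 probe set at 0.29. The 6 core subunits measured were 3 higher and 3 lower (median 0.01), and the 29 probe sets of accessory subunits 21 higher and 8 lower (median 0.04).

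In complex V the smallest p were those of Atp5f1e and Atp5f1d, both of the rotating central stalk. Atp5f1e, the epsilon subunit, stood at 11.18, 11.32 and 11.41 in controls and 11.30, 11.42 and 11.57 in learning rats, a difference of 0.13 (SE 0.06, 95% interval 0.01 to 0.25, limma adjusted p = 0.437). Atp5f1d, the delta subunit, stood at 10.20, 10.28 and 10.35 against 10.23, 10.40 and 10.53, a difference of 0.12 (SE 0.05, limma adjusted p = 0.437). Atp5f1c, the gamma subunit of that stalk, differed by 0.06 (SE 0.05), or 0.033 without learning replicate 5, 0.041 without control replicate 4 and 0.0094 with the hexokinase covariate. The groups overlapped in all 3, with 3, 4 and 2 learning arrays above the highest control. The catalytic ring subunits Atp5f1a and Atp5f1b were both at -0.02. Atp5pb, subunit b of the peripheral stalk, was the lowest member of the complex at -0.10 (SE 0.05), with all 6 learning arrays below the control mean, and -0.17 with the covariate. Atp5po, the subunit that joins that stalk to the head, was at 0.05 (SE 0.05). Subunit g of the membrane part, Atp5mg, was at 0.05 (SE 0.05), or 0.033 without control replicate 4 and 0.087 without learning replicate 3.

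**Figure D4:**
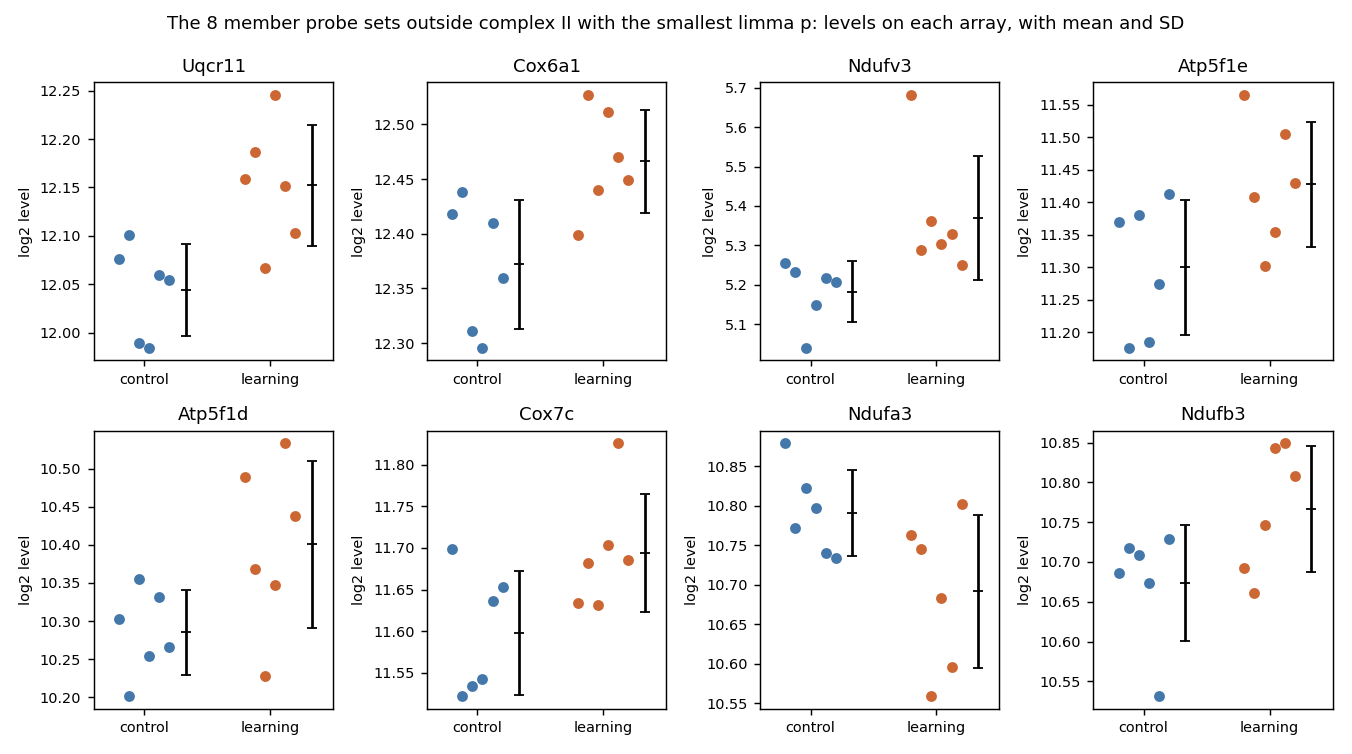
Log2 levels (vertical axis, log2, own scale in each panel) of the 8 member probe sets outside complex II with the smallest limma p, on each control array (blue) and learning array (orange) in replicate order, with black bars for group mean and SD. The groups overlap in every panel, and single high arrays are seen for Ndufv3 (learning replicate 1) and Cox7c (replicate 5).

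Proteins that act on the complexes without being subunits gave differences of like size. The 5 Ndufaf assembly factors of complex I were all higher, with a median of 0.04 and 0 under an unadjusted p of 0.05. Ndufaf4 and Ndufaf8 were at 0.08 (SE 0.07) and 0.06 (SE 0.04). Atp5if1, which inhibits the ATP synthase when the gradient collapses, was at 0.05 (SE 0.05), and Cox7a2l, which joins complexes III and IV into supercomplexes, at -0.05 (SE 0.04). Single arrays moved each of these: Ndufaf4 was at 0.031 without control replicate 1 and 0.12 without control replicate 2 or learning replicate 5. Ndufaf8 was at 0.042 without learning replicate 4, Atp5if1 at 0.023 without control replicate 3 and Cox7a2l at -0.025 without learning replicate 6.

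**Figure D5:**
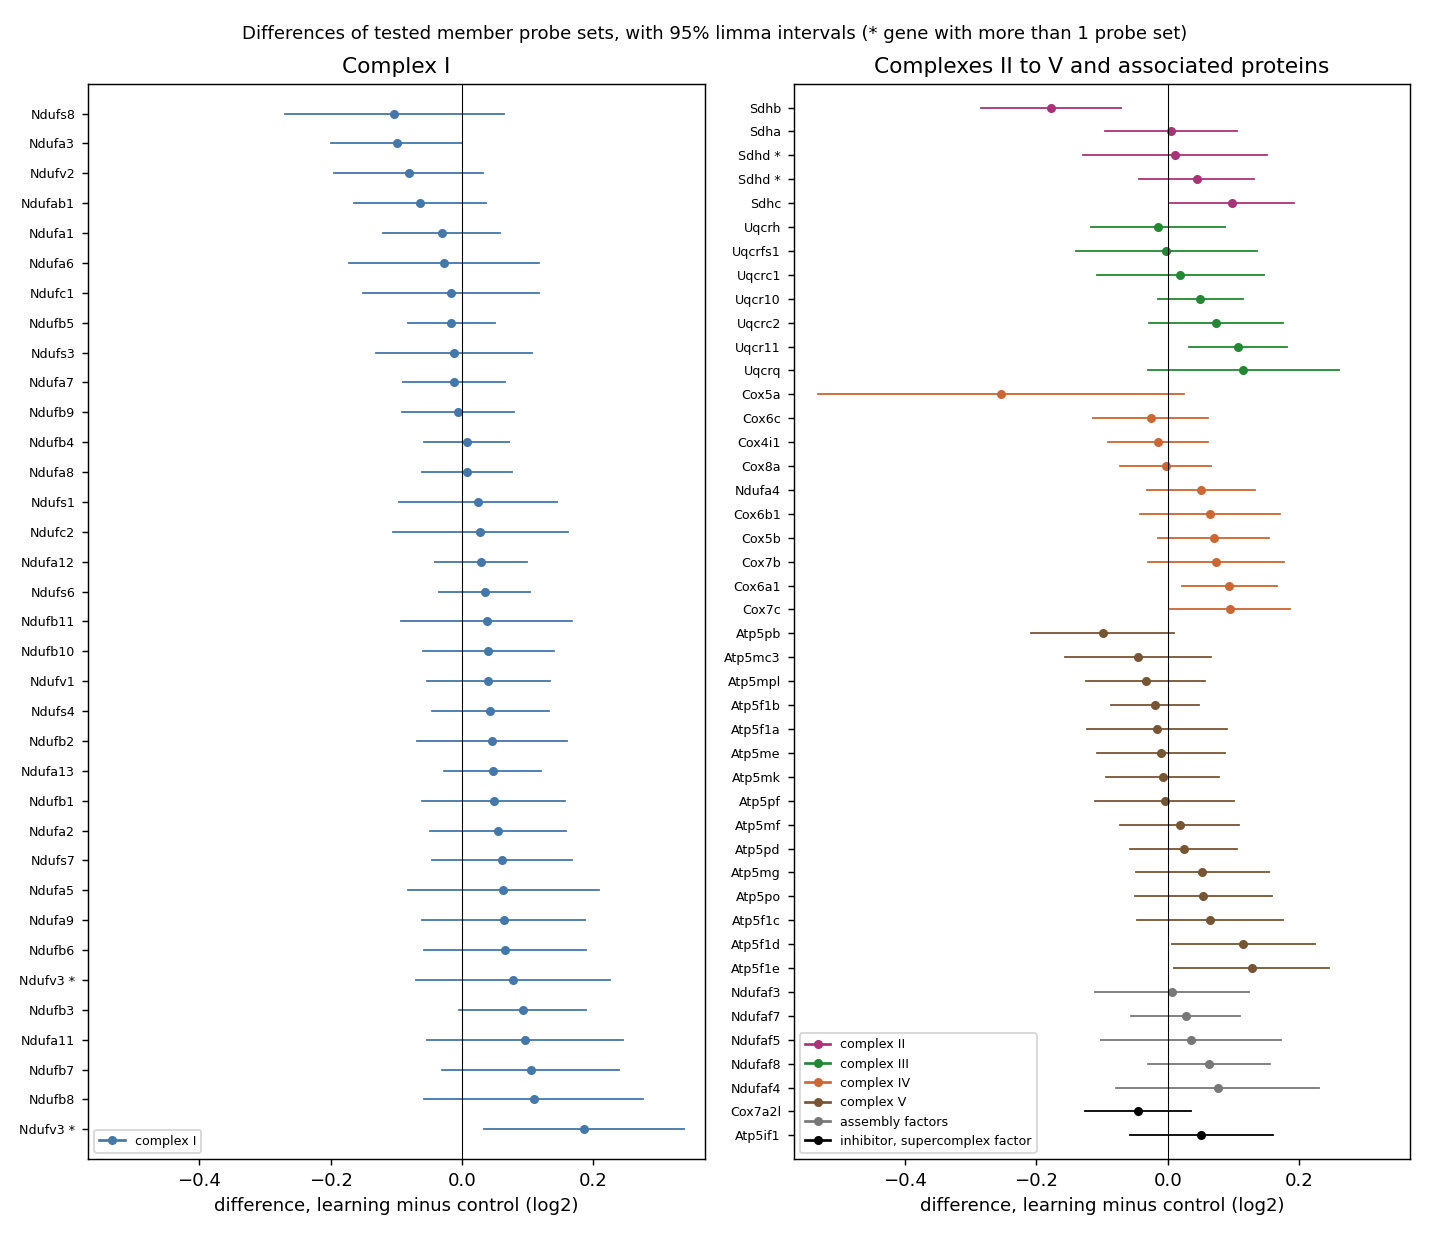
Difference between spatial learning and control task (horizontal axis, log2) for each of the 79 tested member probe sets, as points with 95% limma intervals, ordered by complex and coloured by complex. Of the points 52 lie above 0 and 27 below, no member passed after adjustment, and Cox5a has the longest interval, reaching -0.53.

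Other mitochondrial genes were taken from lists of the pathway, and no probe set in any of them passed the test. Among 14 probe sets of respiratory chain proteins outside the naming rule 10 were higher (median 0.06), with Coq10b, a coenzyme Q binding protein, at -0.32 and cytochrome c1 (Cyc1, of complex III) at 0.08. Of 32 probe sets of further assembly factors 15 were higher (median -0.01), with Higd1a at 0.14 and -0.011 on its 2 probe sets and Atpaf1 at -0.11. Citric acid cycle and pyruvate dehydrogenase genes were lower in 11 of 17 (median -0.02), with Ogdh at -0.14 and Dld at -0.18. Both belong to the oxoglutarate dehydrogenase complex, whose other component, Dlst, was at 0.065. Carriers, porins and uncoupling proteins were lower in 11 of 20 (median -0.02), with Slc25a27 at 0.20, 0.15 and 0.085 on its 3 probe sets and Slc25a10 at -0.13. Import genes were higher in 15 of 23 (median 0.03), with Timm10 at 0.10 and Tomm20 at 0.09 and -0.043 on its 2 probe sets. When 1 array was left out, the medians ranged from -0.016 to 0.0075 for the assembly factors, -0.043 to -0.0068 for the citric acid cycle, -0.045 to 0.0007 for the carriers and 0.0084 to 0.044 for import.

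Regulators of mitochondrial biogenesis had 7 tested probe sets of 6 genes, out of 10 listed genes with a probe set. The genes of NRF-1 and YY1 were not among those tested, while Gabpb1, for a subunit of GABP, was, at -0.0088 (SE 0.10). Of the 7 probe sets 6 were lower, with Creb1 at -0.32 and -0.19 and Sp1 at -0.06. Their median was -0.04, or -0.065 to -0.015 with 1 array left out and -0.01 without the level filter. The list of mitochondrially encoded subunits matched 0 probe sets by symbol. Probe sets that the platform annotation names COX1 and COX2, taken here from those names to be the mitochondrial oxidase subunits, were found after the values were seen, and the RefSeq gene table used here does not list their identifiers. They differed by -0.023 and 0.0033 (SE 0.03 and 0.02) at levels of 14.1 and 14.7, close to the highest value of the table, 14.8.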

How the data were processed

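The deposited values are log2 summaries per probe set, made by the authors with GCRMA per the submitters' processing notes (version and settings not given in the sources used here). GCRMA makes array distributions nearly equal, so a change in total RNA cannot be seen, and that the scale is log2 was read from the range (0.134 to 14.8). Names come from the platform annotation, in which small subunits with many pseudogenes can be ambiguous. Non-control probe sets with a mean of at least 4 were fitted with limma 3.58.1 in R 4.3.3 (2-sided, with an intensity trend and no term but group). Benjamini-Hochberg adjustment ran over all 9610. Exact permutation tests ran over the 924 ways to choose 6 of 12 arrays. The procedure was tested on simulated data with planted changes larger than any member difference here. That test cannot show whether changes as small as those of the members would be found. Precision is limited by having 6 arrays per group. Array pairs correlated at 0.996 to 0.998, and no source used here gives scan batches. Groups come from the sample titles. Named members were those with the smallest p in each complex (6, 5, 4, 6 and 5 in complexes I to V, and 2 assembly factors), their other probe sets, tissue isoforms, Ndufa4 and Atp5if1. Alternatives covered the filter, the limma settings, normalization, a replicate block, the hexokinase gap as a covariate and arrays left out. Other genes, such as Ndufs8, Atp5po, Dlst, P2ry12, Hbb, Bok, Nnat, Slc1a2, Aqp4, Gabpb1, Uqcrfs1 and Atp5f1a, were named after their values were seen. Members and lists were chosen with earlier results of these data known.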

Additional observations from a re-analysis of the deposited data

Results flagged for a closer look

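In each group of 6 arrays, the value farthest from its nearest neighbour was compared with Dixon's limit for the named members and the complex means. Of 92 groups 12 held such an array, where chance gives about 1 in 20 if groups are independent. These groups share the same 12 arrays, and the count was not made over all tested probe sets. It is therefore no trait of the members. Learning replicate 5 accounted for 5 of the 12. That array was also the highest in 15.4% and the lowest in 14.4% of all tested probe sets. It stood at 10.57 for Uqcrc2 (others at most 10.37), 7.18 for Ndufb8 (others at most 6.75), 11.83 for Cox7c (others at most 11.70), 7.46 for Ndufaf4 (others at least 7.67) and 2.12 for the dim Cox6a2 (others at least 2.15). In the same group replicate 6 was high for Sdha, at 10.96 against at most 10.77, replicate 1 for Ndufv3, at 5.68 against at most 5.36, and replicate 3 was low for Atp5mg, at 10.74 against at least 10.90. Among control arrays, replicate 5 was low for Ndufb3, at 10.53 against at least 10.67, and for Ndufb7, at 9.01 against at least 9.23. Control replicate 2 was low for Cox4i1, at 12.23 against at least 12.29, and control replicate 1 high for the complex I mean, at 9.92 against at most 9.86.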

How the results depend on the processing

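No member was called in any of 23 alternatives, among them the rank-sum test, which could call none. Over all tested probe sets the limma fits also called 0, with few exceptions. These were 3 with array weights, 3 without control replicate 6, and 5 without control replicates 3 and 6 and learning replicate 6. A count of 0 is therefore no trait of the members. Over the limma fits the smallest member adjusted p was 0.189, with array weights. The median over all members stayed positive, from 0.019 to 0.041, and so did the medians of complexes I and III, while those of complexes II (-0.034 to 0.041) and V (-0.011 to 0.023) took either sign. The count of members under an unadjusted p of 0.05, 9 as reported, ranged from 4 to 11 when 1 array was left out. It was 4 without control replicate 2 or 4 (5.06% of members, against 10.2% and 8.11% of all tested probe sets), 5 without learning replicate 5 (6.33% against 9.15%) and 11 without learning replicate 3 (13.9% against 10.8%). It was 4 with the hexokinase gap as a covariate (5.06% against 6.3%) and 5 with the replicate block (6.33% against 8.0%). Same-numbered arrays did not deviate together, with correlations of -0.171 to 0.0821. These cannot show how the rats were handled, and the labels do not say whether the numbers pair them. The complex IV median was -0.0022 without the level filter, which adds 5 dim isoforms. Signs near 0 changed. Sdha was -0.0031 with array weights, -0.065 with the hexokinase covariate and -0.049 without control replicates 3 and 6 and learning replicate 6, and ranged from -0.032 to 0.023 with 1 array left out. Cox4i1 was 0.0067 with array weights and ranged from -0.032 to 0.0056. Cox8a was 0.015 with the covariate and ranged from -0.017 to 0.010. The brighter Sdhd probe set was -0.0069 with the covariate. The dimmer one was -0.015 with it and -0.034 without those 3 arrays, and ranged from -0.035 to 0.041 with 1 left out. Without the 3 arrays the median of further assembly factors was -0.027. That of respiratory chain genes outside the naming rule ranged from 0.039 to 0.073. Apart from the filter, the cause of these shifts was not tested.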
